A study of Mus musculus with 8 samples.

Results

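The genes described here are 10 that mark or serve conventional dendritic cells, in particular the type 1 subset, cDC1, that cross-presents antigen: Batf3, Irf8, Zbtb46, Clec9a, Xcr1, Tlr3, Flt3, Itgae, Itgax and Cadm1. They were taken by symbol from a table of 34586 gene symbols, and each symbol had 1 row. Batf3 and Clec9a were chosen by their measured FPKM, which had been seen to be lower in tamoxifen tumors of these same libraries, so their difference between groups is given as a description with no test. The other 8 genes were named beside them with those falls known, so a test of one of them is no independent evidence of the direction.

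RNA sequencing was done on 8 tumors taken from the cecum of C57BL/6 mice, which model the gastrointestinal stromal tumor, a sarcoma driven by the receptor Kit. The groups are 4 tumors from mice given tamoxifen and 4 from mice given vehicle, and all 8 were Etv1 flox/flox and carried the tamoxifen-dependent recombinase as Rosa26 CreERT2/CreERT2, with the mutant receptor as Kit V558Delta/+. Both groups thus share the mutant Kit, the floxed Etv1 and the Cre, and differ in whether tamoxifen was given to delete Etv1. The Rosa26 locus is active in most cell types, so Cre is not limited to tumor cells, and an effect of tamoxifen itself cannot be told apart from one of the deletion. The sources used here do not give the age of the mice or the dose and timing of tamoxifen. Nothing states that each replicate was its own mouse, so the p-values cover only the variation among these 8 libraries, which may be technical.

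Conventional dendritic cells take up antigen in tissues and present it to T cells. In mice the cDC1 subset depends on the transcription factors Batf3 and Irf8, grows in response to the cytokine Flt3l through its receptor Flt3, and presents antigen from dead or infected cells on MHC class I to CD8 T cells. Because whole tumors were sequenced, fewer cells of a type and less RNA per cell cannot be told apart in any value below. Several of the genes are also used by other cells: Itgae by T cells of the gut lining, Irf8 by macrophages and B cells, Itgax by macrophages, Zbtb46 by endothelium, and Tlr3 and Cadm1 by epithelium.

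Values are FPKM, fragments of a gene scaled by transcript length and by library size, so levels can be set side by side between genes. Absolute depth is unknown; the smallest steps among weakly expressed genes gave relative depths of 0.826 to 1.16, with vehicle replicate 1 as the unit. Etv1, the deleted gene, had 34.9, 19.7, 31.4 and 17.4 FPKM in tamoxifen replicates 1 to 4, against 34.6, 51.1, 40.4 and 38.6 FPKM in vehicle replicates 1 to 4. Tamoxifen replicate 1 lay within the vehicle range, and the difference did not pass (log2 fold change -0.70, SE 0.24, limma adjusted p = 0.13, n = 4 each). Under array quality weights it did pass (adjusted p = 0.049). Over all 15023 genes tested with limma, 819 differed at an adjusted p under 0.05, or 5.45%, with 358 (2.38%) higher and 461 (3.07%) lower in tamoxifen tumors. After scaling to the same total, 153 were higher and 75 lower.

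All 10 genes had a lower mean in tamoxifen than in vehicle tumors, and in 7 of them the groups did not overlap. Such separation occurred in 15.1% of all tested genes, and in 7.74% downward; since the choice of the set drew on this contrast, nothing is read from the set's count. The median log2 fold change of the 10 genes was -0.98, a value that includes Batf3 and Clec9a and is read as a description only; over all tested genes it was 0.0054. Of the 8 genes tested, Xcr1 and Itgae fell past the threshold, Irf8, Flt3, Itgax, Tlr3, Cadm1 and Zbtb46 did not pass, and the 3 genes whose groups overlapped were Tlr3, Cadm1 and Zbtb46. All 10 genes had a mean over the 8 libraries of at least 1 FPKM and so entered the test, but Xcr1 and Flt3 did so only through the vehicle group, so the count of genes past the threshold supports nothing about the set.

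**Figure D1:**
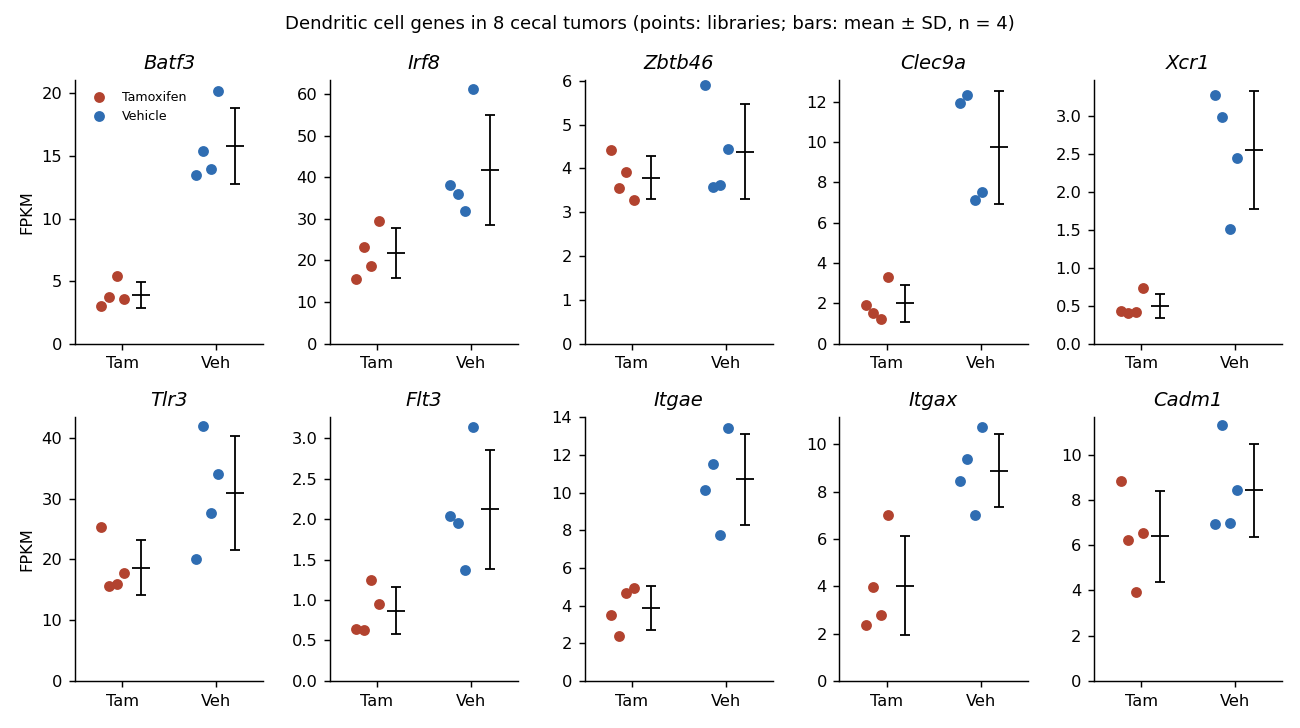
FPKM of the 10 genes in each library, with tamoxifen tumors (Tam) left of vehicle tumors (Veh); each point is 1 library and the bar beside the points is the mean with the SD (n = 4). In Batf3, Clec9a and Xcr1 the lowest vehicle tumor stands more than 2-fold above the highest tamoxifen tumor, while in Zbtb46, Tlr3 and Cadm1 the groups overlap.

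The promoters of Batf3, Clec9a and Xcr1, whose values were furthest apart between groups, and of Zbtb46, which did not pass, are shown from RefSeq (GRCm38.p6), each from 250 bases before to 50 bases after the transcription start, read 5′ to 3′ on the strand of the gene. RefSeq windows were matched for 8 of the 10 genes, with 9 windows in all. Capitals mark matches to the motifs searched on both strands: the AP-1 motif TGANTCA; 2 forms of it beside an IRF site, TTTC then 4 bases of any kind then TGANTCA, and GAAA directly before TGANTCA; the ETS with IRF motif, GGAA then 2 bases then GAAA; and the interferon response motif, GAAA then 2 bases then GAAA.
Batf3, chr1:191098164-191098463 (plus strand): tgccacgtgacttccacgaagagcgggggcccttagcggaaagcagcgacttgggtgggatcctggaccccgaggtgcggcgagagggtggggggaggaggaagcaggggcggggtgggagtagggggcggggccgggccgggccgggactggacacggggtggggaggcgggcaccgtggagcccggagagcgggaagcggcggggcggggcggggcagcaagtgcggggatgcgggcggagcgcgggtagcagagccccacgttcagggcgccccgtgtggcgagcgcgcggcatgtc
Clec9a, chr6:129408612-129408911 (plus strand): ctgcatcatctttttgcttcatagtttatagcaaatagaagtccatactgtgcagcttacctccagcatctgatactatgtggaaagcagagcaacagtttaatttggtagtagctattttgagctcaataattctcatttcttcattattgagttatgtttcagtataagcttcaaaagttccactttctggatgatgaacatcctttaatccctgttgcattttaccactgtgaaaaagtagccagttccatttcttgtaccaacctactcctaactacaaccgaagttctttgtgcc
Xcr1, chr9:123861980-123862279 (minus strand): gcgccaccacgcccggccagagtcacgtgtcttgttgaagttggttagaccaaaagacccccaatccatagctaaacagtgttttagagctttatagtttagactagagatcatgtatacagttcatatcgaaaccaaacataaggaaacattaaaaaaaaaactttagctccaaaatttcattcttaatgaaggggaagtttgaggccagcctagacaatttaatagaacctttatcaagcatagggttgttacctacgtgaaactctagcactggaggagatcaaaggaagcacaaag
Zbtb46, chr2:181424339-181424638 (minus strand): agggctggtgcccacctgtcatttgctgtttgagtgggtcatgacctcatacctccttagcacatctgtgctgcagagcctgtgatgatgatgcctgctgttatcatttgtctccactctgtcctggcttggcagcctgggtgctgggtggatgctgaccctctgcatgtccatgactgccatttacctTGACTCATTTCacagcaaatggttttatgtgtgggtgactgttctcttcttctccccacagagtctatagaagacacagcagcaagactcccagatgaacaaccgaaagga
The windows of Batf3, Clec9a and Xcr1 held none of these letters. The Zbtb46 window held TGACTCATTTC on its own strand, starting 61 bases before the transcription start, which is the second AP-1 with IRF form on the other strand and overlaps an AP-1 match. Itgax held an AP-1 match, TGAGTCA, and the other 4 windows, of Irf8 (2), Tlr3 and Flt3, held no match. Of 32851 mouse promoter windows of the same length, 7.81% held the AP-1 motif, 0.119% the first and 0.125% the second form with IRF, 2.72% the ETS with IRF motif and 3.44% the interferon response motif. A match describes letters only, and so does the lack of one.

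Of the transcription factors, Batf3, a basic leucine zipper protein without which mice lack cDC1, had the widest gap between groups of all 10 genes. It had 2.97, 3.74, 5.38 and 3.55 FPKM in tamoxifen replicates 1 to 4, against 13.5, 15.4, 14.0 and 20.2 FPKM in vehicle replicates 1 to 4. Every tamoxifen tumor lay below every vehicle tumor, and the lowest vehicle value was 2.51 times the highest tamoxifen value. The means were 3.91 ± 1.03 and 15.8 ± 3.07 FPKM (SD, n = 4 each), a log2 fold change of -1.78 on the scale of FPKM + 1. The gene has a locus of its own in the table (ENSMUSG00000026630, chromosome 1, 192922293 to 192932822 in mm9).

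Irf8, the interferon regulatory factor that works with Batf3 in cDC1 and that macrophages and B cells also use, had 15.6, 23.2, 18.8 and 29.4 FPKM in tamoxifen tumors and 38.1, 36.1, 31.9 and 61.2 FPKM in vehicle tumors. The groups did not overlap, but the gap was narrow, with the lowest vehicle tumor 1.09 times the highest tamoxifen tumor. The difference did not pass (log2 fold change -0.91, SE 0.25, limma adjusted p = 0.0724), except with a covariate for the low or high range of sample identifiers (adjusted p = 0.0323). The table places Irf8 in a merged locus of 4435 kb on chromosome 8 (122434260 to 126869624 in mm9) that it gives to 159 other genes as well, among them the mesenchymal transcription factor Foxf1a. Foxf1a measured 33.4 to 63.9 FPKM in tamoxifen and 39.0 to 68.6 FPKM in vehicle tumors. The bounds the authors deposited for Irf8 began at 0 FPKM in every library and reached up to 164 FPKM in tamoxifen and 329.9 FPKM in vehicle tumors, far wider than the spread between libraries.

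Zbtb46, a zinc finger repressor that among immune cells marks conventional dendritic cells and that endothelium also expresses, had the smallest difference of the 10 genes. It had 4.41, 3.56, 3.91 and 3.28 FPKM in tamoxifen tumors and 5.90, 3.57, 3.61 and 4.44 FPKM in vehicle tumors, with overlapping ranges. The log2 fold change was -0.15 (SE 0.16, limma adjusted p = 0.621), and it did not pass in any of the 18 alternatives in which it was tested. Endothelial markers had higher means in tamoxifen tumors, and 4 of 8 rose (Pecam1, Tek, Emcn and Egfl7), beside 2.38% of all tested genes. Their summed level ran from 148 to 196 FPKM in tamoxifen and 74.9 to 107 FPKM in vehicle tumors. Each call was lost without some library: for Emcn vehicle replicate 3 or 4, for Egfl7 vehicle replicate 2, 3 or 4, for Pecam1 any but tamoxifen replicate 1 and vehicle replicate 4, and for Tek any but tamoxifen replicate 3 (limma adjusted p up to 0.131). All 4 calls were lost with the replicate block (up to 0.0935), and Pecam1, Tek and Emcn also when libraries were scaled to equal totals (up to 0.229). The part of the endothelium in the Zbtb46 values was not tested.

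Clec9a, a lectin receptor by which cDC1 recognize actin exposed on dead cells, had a log2 fold change of -1.85 on the scale of FPKM + 1. It had 1.89, 1.52, 1.24 and 3.31 FPKM in tamoxifen tumors, against 11.9, 12.4, 7.12 and 7.53 FPKM in vehicle tumors. The groups were separate, with vehicle replicates 1 and 2 highest and tamoxifen replicate 4 the highest of its group. The means were 1.99 ± 0.919 and 9.73 ± 2.78 FPKM (SD, n = 4 each), which puts the tamoxifen mean at 0.204 of the vehicle mean. Its locus in the table (chromosome 6, 129339308 to 129402018 in mm9) is shared with Clec1a, a related lectin gene expressed at 1 FPKM or more. Reads could thus be assigned to either gene, and how many is unknown.

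Xcr1, the chemokine receptor that marks cDC1 and binds Xcl1 from NK cells and CD8 T cells, fell in the tamoxifen tumors. It had 0.424, 0.408, 0.418 and 0.729 FPKM there, against 3.27, 2.98, 1.51 and 2.45 FPKM in vehicle tumors. Each vehicle tumor was above every tamoxifen tumor, and 3 of the tamoxifen tumors lay between 0.408 and 0.424 FPKM. The log2 fold change was -1.23 (SE 0.20, limma adjusted p = 0.0158, n = 4 each; chromosome 9, 123761436 to 123771246 in mm9). The tamoxifen mean was 0.194 of the vehicle mean, a fall that the scale of FPKM + 1 understates at these low levels. Xcr1 entered the test only through its vehicle values; with no filter on low values the adjusted p was 0.0229. It was 0.0541 without vehicle replicate 2 and 0.0527 with a replicate block, and the call held in every other alternative that tested the gene.

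Tlr3, the endosomal sensor of double-stranded RNA that cDC1 carry at a high level and epithelium also makes, had 25.3, 15.6, 15.9 and 17.8 FPKM in tamoxifen tumors and 20.1, 42.1, 27.7 and 34.1 FPKM in vehicle tumors. Tamoxifen replicate 1 was above vehicle replicate 1, so the groups overlapped. The difference did not pass (log2 fold change -0.68, SE 0.24, limma adjusted p = 0.141), nor in any of the 19 alternatives.

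Flt3, the receptor tyrosine kinase through which dendritic cell precursors and conventional dendritic cells receive Flt3l, was the least abundant of the 10 genes in vehicle tumors. It had 0.640, 0.633, 1.25 and 0.950 FPKM in tamoxifen tumors, against 2.04, 1.95, 1.37 and 3.13 FPKM in vehicle tumors. The groups did not overlap, but tamoxifen replicate 3 came close to vehicle replicate 3. The difference did not pass (log2 fold change -0.73, SE 0.21, limma adjusted p = 0.0817), except with the identifier covariate (adjusted p = 0.0282).

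Among the integrins, Itgae, the alpha chain of the E-cadherin receptor CD103 found on cDC1 and on T cells of the gut lining, fell. It had 3.49, 2.36, 4.67 and 4.92 FPKM in tamoxifen tumors and 10.1, 11.5, 7.73 and 13.5 FPKM in vehicle tumors, with no overlap. The log2 fold change was -1.28 (SE 0.22, limma adjusted p = 0.0184, n = 4 each). The call ended without vehicle replicate 2 (adjusted p = 0.059), without vehicle replicate 4 (0.0569), with scaling to the same total (0.0583) and with the replicate block (0.0558). Its locus (chromosome 11, 72904085 to 72960948 in mm9) also holds the kinase gene Gsg2.

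Itgax, which encodes CD11c and is shared by dendritic cells and many macrophages, had 2.35, 3.98, 2.77 and 6.997 FPKM in tamoxifen tumors and 8.46, 9.37, 7.010 and 10.7 FPKM in vehicle tumors. The groups only just failed to overlap, since tamoxifen replicate 4 and vehicle replicate 3 differed by a factor of 1.002. The difference did not pass (log2 fold change -1.05, SE 0.27, limma adjusted p = 0.0607). It passed without tamoxifen replicate 4 (adjusted p = 0.0175), under array quality weights (0.0461) and with the identifier covariate (0.0464).

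Cadm1, an adhesion molecule of the immunoglobulin superfamily that cDC1 display and that epithelium also makes, had 8.83, 6.23, 3.95 and 6.54 FPKM in tamoxifen tumors and 6.94, 11.3, 7.001 and 8.45 FPKM in vehicle tumors. The ranges overlapped through tamoxifen replicate 1 alone, which lay above vehicle replicates 1, 3 and 4. The difference did not pass (log2 fold change -0.37, SE 0.23, limma adjusted p = 0.384), nor in any of the 19 alternatives. Epithelial markers were all higher on average in tamoxifen tumors, though of 8 only Krt18 rose past the threshold, beside 2.38% of all tested genes. The Krt18 call was lost without any 1 library but tamoxifen replicate 3 or 4 (limma adjusted p up to 0.109), and with no filter (0.0666). The summed level of the epithelial markers ran from 1649 to 3575 FPKM in tamoxifen and 944 to 1732 FPKM in vehicle tumors. Their part in the Cadm1 and Tlr3 values was not tested.

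**Figure D2:**
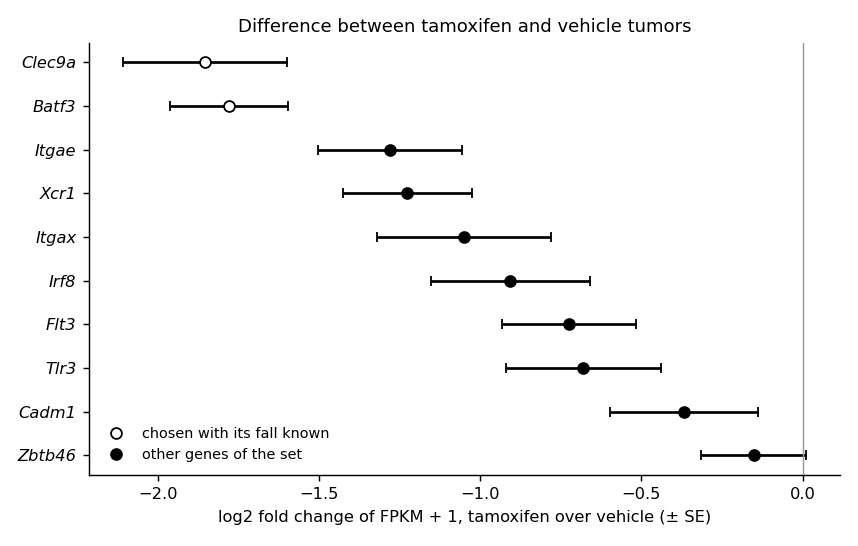
Log2 fold change of FPKM + 1, tamoxifen over vehicle, with its SE for the 10 genes; open circles mark Batf3 and Clec9a, which were chosen with their fall known. On this scale, which understates folds of low genes, the values run from -1.85 in Clec9a to -0.15 in Zbtb46. By the ratio of means Xcr1 had the largest fall, to 0.194 of its vehicle mean, against 0.204 for Clec9a.

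The order of the levels by mean differed between groups. In tamoxifen tumors the order by mean was Irf8 (21.7 FPKM), Tlr3 (18.6), Cadm1 (6.39), Itgax (4.02), Batf3 (3.91), Itgae (3.86), Zbtb46 (3.79), Clec9a (1.99), Flt3 (0.867) and Xcr1 (0.495). Neighbours in that order had overlapping ranges except Tlr3 and Cadm1. In vehicle tumors the order was Irf8 (41.8 FPKM), Tlr3 (31.0), Batf3 (15.8), Itgae (10.7), Clec9a (9.73), Itgax (8.89), Cadm1 (8.42), Zbtb46 (4.38), Xcr1 (2.55) and Flt3 (2.12). There the neighbours without overlap were Batf3 and Itgae, Cadm1 and Zbtb46, and Zbtb46 and Xcr1. Batf3 thus stood above Zbtb46 in each vehicle tumor, while in tamoxifen tumors their ranges overlapped. Batf3 and Clec9a were chosen by their fall, which lowers their places in the tamoxifen order, so the change of order is a description only.

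Within the groups, the libraries did not share 1 order over the genes. Tamoxifen replicate 4 was the highest of its group for 5 genes (Irf8, Clec9a, Xcr1, Itgae and Itgax) and replicate 3 for Batf3 and Flt3. Vehicle replicate 3 was the lowest of its group for 6 genes (Irf8, Clec9a, Xcr1, Flt3, Itgae and Itgax), and vehicle replicate 4 the highest for 5 (Batf3, Irf8, Flt3, Itgae and Itgax). The coefficient of variation ran from 12.9% for Zbtb46 to 52.2% for Itgax in tamoxifen tumors, and from 17.5% for Itgax to 34.7% for Flt3 in vehicle tumors. The sample identifiers fall into a low range, with 2 tamoxifen and 3 vehicle tumors, and a high range, with 2 tamoxifen tumors and 1 vehicle tumor. All 10 genes were lower in tamoxifen tumors within each range: the log2 fold change was -1.82 and -1.98 for Batf3, -2.05 and -1.46 for Clec9a, -1.30 and -1.14 for Xcr1, and -1.46 and -1.32 for Itgae in the low and the high range. Batf3 and Clec9a were chosen by their fall in these libraries, and the high range has 1 vehicle tumor, so these values are a description only. Over all 8 libraries, 49.4% of all tested genes had a negative log2 fold change, and no such share was worked out per range.

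Ratios within a library compare genes independently of the scaling of that library. A total of 16 ratios were computed, with the pairs chosen after the values were seen, and they are given without tests. Batf3 and Clec9a were chosen by their fall, and any ratio with either of them carries that choice. Clec9a over Zbtb46, the gene with the smallest difference, was thus bound to be lower in tamoxifen tumors. The groups did not overlap in 3 of them and overlapped in 13. The ratio of Xcr1 to Clec9a was 0.263 ± 0.0549 in tamoxifen and 0.263 ± 0.0486 in vehicle tumors (SD of the ratios over libraries, n = 4 each), with overlapping ranges. The ratio of Xcr1 to Itgax was 0.135 ± 0.0378 and 0.287 ± 0.0804 in tamoxifen and vehicle tumors, with no overlap, and that of Clec9a to Zbtb46 was 0.545 ± 0.313 and 2.29 ± 0.794, also with no overlap. The ratio of Clec9a to Itgax, at 0.526 ± 0.189 and 1.11 ± 0.320, overlapped. So did the other 4 ratios to Itgax, in tamoxifen and vehicle tumors: 1.16 ± 0.606 and 1.78 ± 0.192 for Batf3, 0.254 ± 0.144 and 0.234 ± 0.0433 for Flt3, 1.12 ± 0.549 and 1.20 ± 0.0673 for Itgae, and 5.86 ± 1.18 and 4.66 ± 0.776 for Irf8. The ratio of Clec9a to Batf3 overlapped too, at 0.551 ± 0.303 and 0.641 ± 0.240.

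Other ratios set the shared genes against markers of the cells that share them. Itgae relative to Cd8a, the alpha chain of the CD8 coreceptor, was 0.556 ± 0.227 in tamoxifen and 0.537 ± 0.0969 in vehicle tumors, with overlapping ranges. Zbtb46 relative to the endothelial gene Pecam1 was 0.130 ± 0.0324 and 0.252 ± 0.0518, with no overlap. Irf8 and Itgax relative to Csf1r, the macrophage growth factor receptor, overlapped: 0.465 ± 0.124 and 0.707 ± 0.285 for Irf8, and 0.0835 ± 0.0358 and 0.150 ± 0.0425 for Itgax, in tamoxifen and vehicle tumors. Clec9a relative to Cd3e, part of the CD3 complex of T cells, also overlapped, at 0.241 ± 0.122 and 0.503 ± 0.156, as did Batf3, at 0.466 ± 0.118 and 0.819 ± 0.167, and Itgae, at 0.466 ± 0.157 and 0.552 ± 0.122, over the same gene.

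**Figure D3:**
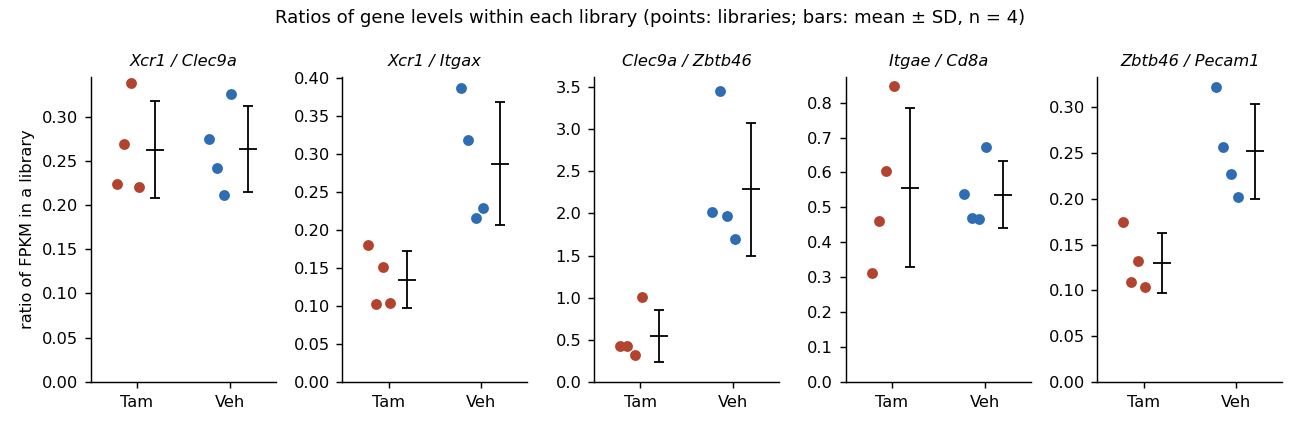
Ratios of FPKM within each library for 5 gene pairs, tamoxifen (Tam) left of vehicle (Veh); points are libraries and bars the mean with the SD (n = 4). Xcr1 over Clec9a and Itgae over Cd8a overlap between groups, while Xcr1 over Itgax, Clec9a over Zbtb46 and Zbtb46 over Pecam1 do not. Clec9a was chosen with its fall known, so its ratios are a description only.

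The list of ligands and partners of the dendritic cell genes also holds Csf2ra and Csf2rb. Of its 11 tested genes, 2 fell, 0 rose and 9 did not pass, with a median log2 fold change of -0.49. Over all tested genes, 3.07% fell and 2.38% rose past the threshold. The list was chosen with earlier results known, so its count is a description only. Xcl1, the ligand of Xcr1, had 7.09, 3.00, 4.02 and 5.74 FPKM in tamoxifen tumors, against 33.8, 11.8, 13.1 and 23.2 FPKM in vehicle tumors. The groups were separate and Xcl1 fell (log2 fold change -1.78, SE 0.35, limma adjusted p = 0.0286), but the call ended without tamoxifen replicates 2 and 3 and vehicle replicates 1, 3 and 4, each left out in turn (adjusted p 0.0521 to 0.0825), and with no filter (0.0539). Flt3l, the ligand of Flt3, varied little within groups and fell, with 32.6, 31.1, 28.2 and 28.0 FPKM in tamoxifen tumors and 44.3, 44.6, 43.8 and 44.7 FPKM in vehicle tumors. Its log2 fold change was -0.55 (SE 0.094, limma adjusted p = 0.0175), and the call ended when libraries were scaled to equal totals (adjusted p = 0.513), with the replicate block (0.0658) and without vehicle replicate 2 (0.0573), 3 (0.0613) or 4 (0.0599). Itgb7, the beta chain that pairs with Itgae and named here after its values were seen, measured 9.31 ± 3.12 in tamoxifen and 18.1 ± 2.50 FPKM in vehicle tumors (limma adjusted p = 0.0552, n = 4 each). It passed with robust limma (adjusted p = 0.0477).

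Of 12 other genes used by cDC1, 2 fell, 1 rose and 9 did not pass, with a median log2 fold change of -0.37. Over all tested genes, 3.07% fell and 2.38% rose past the threshold. Tlr11, a sensor of profilin and flagellin, had 0.438 to 0.624 FPKM in tamoxifen and 1.04 to 2.43 FPKM in vehicle tumors, and fell (limma adjusted p = 0.0374), having entered the test only through the vehicle group. Naaa, a lysosomal amidase, had 20.1 to 23.8 FPKM in tamoxifen and 27.8 to 37.0 FPKM in vehicle tumors, and fell (limma adjusted p = 0.0418). Both calls held only without vehicle replicate 3 when 1 library was left out (adjusted p up to 0.103 for Tlr11 and 0.107 for Naaa in the other 7 fits), and neither gene passed with the replicate block, under array quality weights or when totals were made equal (up to 0.114 for Tlr11 and 0.422 for Naaa), nor Naaa with no filter (0.0518). Nfil3, a transcription factor needed for cDC1 development in mice, went the other way, with 4.21 to 7.21 FPKM in tamoxifen and 1.36 to 2.45 FPKM in vehicle tumors (log2 fold change 1.13, SE 0.19, limma adjusted p = 0.0163). Its call ended without vehicle replicate 2 (adjusted p = 0.0507) and with the replicate block (0.0624). Wdfy4, which mouse cDC1 need for cross-presentation and which is named after its values were seen, measured 2.26 ± 0.988 in tamoxifen and 6.32 ± 3.26 FPKM in vehicle tumors (limma adjusted p = 0.0798, n = 4 each), and passed with the identifier covariate (0.0454).

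Among 7 relatives and partners of Batf3, the AP-1 gene Fos alone passed, and it rose to 13.3 ± 4.87 FPKM in tamoxifen tumors, against 4.76 ± 1.05 FPKM in vehicle tumors (limma adjusted p = 0.0378, n = 4 each). With 1 library left out, it held only without tamoxifen replicate 3 and was weakest without vehicle replicate 3 (adjusted p = 0.109); it was also lost with no filter (0.0674) and with the replicate block (0.0561). The median log2 fold change of these 7 genes was -0.19, and 5.45% of all tested genes passed.

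Genes of other dendritic cells did not move 1 way. Of 8 tested genes of the cDC2 subset, which presents antigen on MHC class II, 1 fell, 1 rose and 6 did not pass. The median log2 fold change was 0.24, and of all tested genes 3.07% fell and 2.38% rose past the threshold. Cd209a, a lectin of monocyte-derived dendritic cells and cDC2, had 0.279, 0.117, 0.169 and 0.041 FPKM in tamoxifen tumors, against 1.79, 1.32, 1.31 and 3.08 FPKM in vehicle tumors. It fell with no overlap (limma adjusted p = 0.0176), entering the test only through the vehicle group, and the call ended with the replicate block (0.0608). Cd209a was not tested in any fit that left out 1 vehicle library. Clec10a, a galactose-binding lectin of cDC2 and macrophages, rose to 10.97 ± 4.73 FPKM in tamoxifen tumors, against 3.66 ± 1.51 FPKM in vehicle tumors (limma adjusted p = 0.0463, n = 4 each). With 1 library left out, it held only without tamoxifen replicate 4 and was weakest without vehicle replicate 3 (adjusted p = 0.121); of the 11 alternatives that kept all libraries, 5 ended it (0.0513 to 0.0866).

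Of 9 tested genes of dendritic cell maturation, 1 rose and 8 did not pass, with a median of -0.41. Beside this list and the next, 2.38% of all tested genes rose and 3.07% fell. The chemokine gene Ccl17 rose to 5.35 ± 1.76 FPKM in tamoxifen tumors, against 1.98 ± 0.703 FPKM in vehicle tumors (limma adjusted p = 0.0454, n = 4 each), a call that held, with 1 library left out, only without tamoxifen replicate 4 (up to 0.105, without vehicle replicate 3) and was lost with no filter (0.0818) and with totals made equal (0.0972). Of 10 tested genes of plasmacytoid dendritic cells, the interferon-producing type, 3 fell and 7 did not pass, with a median of -0.60. Siglech, a surface lectin of these cells, measured 1.05 ± 0.608 in tamoxifen and 3.28 ± 0.721 FPKM in vehicle tumors (limma adjusted p = 0.0396, n = 4 each), and its call held, with 1 library left out, only without tamoxifen replicate 1 (up to 0.116, without vehicle replicate 3) and was lost in 5 of the 10 other alternatives (up to 0.132). Bst2 and Irf7, which interferon induces in many cell types, fell to 156 ± 51.3 and 161 ± 61.3 FPKM in tamoxifen tumors, against 410 ± 22.5 and 505 ± 54.3 FPKM in vehicle tumors (limma adjusted p = 0.0131 and 0.0134, n = 4 each). Bst2 lost its call with scaling to the same total (0.0586).

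**Figure D4:**
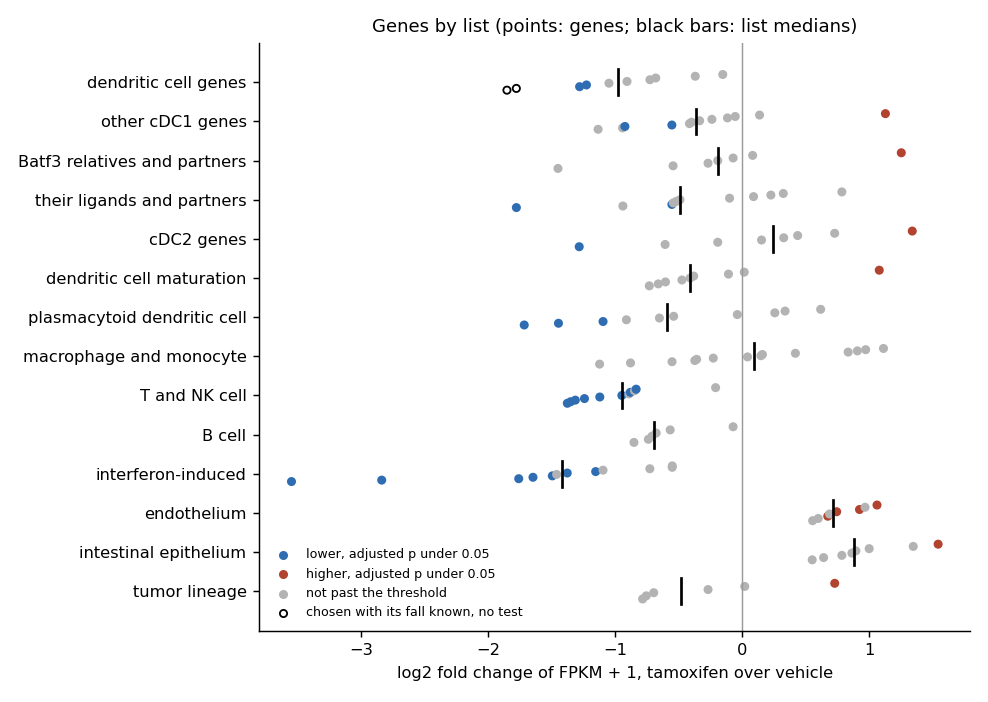
Log2 fold change of FPKM + 1, tamoxifen over vehicle, of the genes in 14 lists, with blue for genes lower and red for genes higher past the threshold, grey for the rest and a black bar at the list median; Batf3 and Clec9a, chosen with their fall known, are open circles with no test. The medians run from -1.42 in the interferon-induced genes to 0.88 in intestinal epithelium, with the dendritic cell genes at -0.98.

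Markers of the other cells that share these genes differed by cell type, and the part of those cells in the results was not tested. Over all tested genes, 3.07% fell and 2.38% rose past the threshold. The lists were chosen with earlier results known, so the count of any list is a description only. Of 11 T and NK cell genes 8 fell, 0 rose and 3 did not pass, with a median log2 fold change of -0.95, and their summed level ran from 104 to 140 FPKM in tamoxifen and 207 to 291 FPKM in vehicle tumors. Cd8a, for one, had 5.12 to 11.1 FPKM in tamoxifen and 16.5 to 24.6 FPKM in vehicle tumors (limma adjusted p = 0.0161), a call that ended without vehicle replicate 2 or 4, with the replicate block and after scaling to equal totals (adjusted p up to 0.0774). The others were Cd3d, Cd3e, Cd8b1, Nkg7, Gzmb, Prf1 and Ncr1, of which Cd3e, Nkg7 and Prf1 kept their calls whichever 1 library was left out. With totals made equal and, apart from that, with the replicate block, all but Cd3e and Nkg7 lost their calls (adjusted p up to 0.122, for Cd3d). Calls ended for Cd3d without tamoxifen replicate 2 or vehicle replicate 2 or 4, for Cd8b1 without those or vehicle replicate 1, for Gzmb without tamoxifen replicate 2 or any 1 vehicle library, and for Ncr1 in all 6 such fits that tested it (limma adjusted p up to 0.0949). Prf1 and Ncr1 had a mean under 1 FPKM in tamoxifen tumors and entered the test only through the vehicle group. The 8 genes that fell include both. Of 14 macrophage and monocyte genes 0 passed by limma, and the smallest p were those of Mertk (20.1 ± 9.37 in tamoxifen and 7.98 ± 0.771 FPKM in vehicle tumors, adjusted p = 0.0762) and Cx3cr1 (13.7 ± 6.22 and 29.2 ± 7.13 FPKM, adjusted p = 0.0955). Mertk did pass, and was higher, without tamoxifen replicate 4 (0.0243), with the identifier covariate (0.0243) and under array quality weights (0.0338). The list's median was 0.096, and the summed level ran from 842 to 2567 FPKM in tamoxifen and 1026 to 1434 FPKM in vehicle tumors.

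Of 6 B cell genes 0 passed by limma, with a median of -0.69 and summed levels of 13.6 to 35.0 FPKM in tamoxifen and 7.15 to 108 FPKM in vehicle tumors. The smallest p were those of Cd79a (adjusted p = 0.446) and Ms4a1 (adjusted p = 0.603). Of 7 mast cell genes 1 was abundant enough to be tested, Mcpt1 (adjusted p = 0.849), and the list summed to 1.74 to 8.83 FPKM in tamoxifen and 2.21 to 6.41 FPKM in vehicle tumors. Of 12 interferon-induced genes 7 fell, 0 rose and 5 did not pass, with summed levels of 487 to 898 FPKM in tamoxifen and 1786 to 3392 FPKM in vehicle tumors. Among those that fell were Oas2, Ddx58, Ifit3, Cxcl9, Cxcl10 and Gbp2, of which Oas2, Ddx58, Cxcl9 and Gbp2 kept their calls whichever 1 library was left out. With totals made equal, Ddx58 (adjusted p = 0.145), Ifit3 (0.0931) and Gbp2 (0.0524) lost theirs, as did Ddx58 (0.0575), Ifit3 (0.0615) and Cxcl10 (0.0588) with the replicate block. Ifit3 lost its call without vehicle replicate 2, and Cxcl10 without tamoxifen replicate 1 or 2 or vehicle replicate 2 (limma adjusted p up to 0.0701). Of 6 genes of the tumor lineage 4 had a negative log2 fold change and 2 a positive one, with a median of -0.48. Cd34, which endothelium also makes, alone passed, and rose. Its call was lost without tamoxifen replicate 1 or 2 or vehicle replicate 2, 3 or 4 (limma adjusted p up to 0.0724), with totals made equal (0.166) and with the replicate block (0.06). None of the genes in these lists was at 0 in all 8 libraries.

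The genes whose pattern over the 8 libraries came closest to that of Batf3 were Il12rb1, Usp35, Tacr1, Shc1 and Gbp2. Likeness was the mean absolute difference between log2(FPKM + 1) profiles, each centred on its own mean, and it was 0.18, 0.20, 0.20, 0.20 and 0.22, against a median of 0.89 over all genes compared. The profiles span both groups, and Batf3 and Clec9a were chosen by their fall. A close gene therefore had to share much of that fall, and the differences and places are a description only. Il12rb1, a chain of the interleukin-12 receptor, had 2.84 ± 0.883 in tamoxifen and 9.23 ± 1.31 FPKM in vehicle tumors, and Tacr1, the substance P receptor, had 10.1 ± 1.14 and 28.4 ± 3.94 FPKM (SD, n = 4 each). For Clec9a the closest were Art2a-ps, H2-DMa, Xaf1, Oas2 and D14Ertd668e, with differences of 0.22, 0.23, 0.27, 0.27 and 0.28. H2-DMa, which loads peptides on MHC class II, had 51.5 ± 12.4 in tamoxifen and 161 ± 12.1 FPKM in vehicle tumors (SD, n = 4 each). Among the genes of the set, Xcr1 came closest to Clec9a, at 0.32 and the 14th place, and Itgae closest to Batf3, at 0.30 and the 44th place.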

How the data were processed

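The authors deposited 1 table of FPKM per gene and library, in which every value has bounds and a quantification status, per the file headers. STAR 2.3, Cufflinks, Cuffdiff and the build mm9 are named in the submitters' processing notes; the sources used here give neither their roles nor the annotation or scaling. Each column was tied to its sample through the identifier that the description holds, groups and replicate numbers come from the titles, and starts are counted from 1.

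Values with a failed or high-data status (178) were treated as missing, and rows of a symbol were summed. The 15023 genes with a mean of at least 1 FPKM and 2 or more estimates per group were compared as log2(FPKM + 1) with limma 3.58.1 in R 4.3.3 (mean-variance trend, 2-sided), with Benjamini-Hochberg adjustment over all of them and a threshold of 0.05. All adjusted p come from this test or the alternative named. Fold changes of low genes are understated on this scale. Strandedness is not given, so antisense reads cannot be told apart. The procedure was tested on simulated data. None of the 10 genes fell under the filter, so the exact test planned for such genes was not needed.

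The genes and the 14 other lists were chosen with earlier results of these data known. In the lists, the genes named were those past the threshold, or else the 2 with the smallest p, except for 1 gene that is not reported here; Itgb7, Wdfy4 and the gene pairs of the ratios were added after their values were seen. The plot of lists leaves out the mast cell list, which had 1 tested gene. The alternatives were pseudocounts of 0.1 and 0.25, no filter, a filter of 5 FPKM, median-ratio or total scaling, robust limma, quality weights, a covariate for the identifier range, a replicate block, the highest row per symbol, and each library left out.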

Additional observations from a re-analysis of the deposited data

Results flagged for a closer look

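For the genes named, a library was marked where its gap to the nearest of the other 3 of its group was above Dixon's critical share of the group's range; chance marks about 1 group in 20, and 118 groups gave 8 marks. One was in the dendritic cell genes: Xcr1 was 0.729 FPKM in tamoxifen replicate 4, against 0.408 to 0.424 FPKM in the other tamoxifen tumors. The same tumor had the highest Clec9a, Irf8, Itgae and Itgax of its group, none of which was marked, and Krt18 at 147 FPKM, against 53.7 to 61.3 FPKM in the others. In vehicle replicate 2, Siglech was 2.20 FPKM against 3.63 to 3.66 FPKM in the other vehicle tumors, and Bst2 was 376 FPKM against 418 to 424 FPKM. The same tumor had Mcpt1 at 3.38 FPKM, against 0.406 to 0.777 FPKM, and Emcn at 13.2 FPKM, against 11.3 to 11.5 FPKM. In vehicle replicate 4, Tek was 3.21 FPKM, against 2.35 to 2.48 FPKM, and Wdfy4 was 11.2 FPKM, against 4.28 to 5.01 FPKM.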

How the results depend on the processing

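Of 1099 values of named genes recomputed under the alternatives, 907 kept their direction and their side of the threshold, 179 lost a call, 11 gained one and 2 reversed. Both reversals were in Mcpt1, which did not pass: 0.18 with quality weights and 0.022 without tamoxifen replicate 1, in a range of -0.34 to 0.022 over the 6 fits without 1 library that tested it. The count of all genes called was 819 and became 534 with the filter of 5 FPKM, 228 with scaling to the same total and 252 with the replicate block; without 1 library it ran from 268 to 856, and fell more than 1.5 times short for every library but tamoxifen replicates 3 and 4. With scaling to the same total, 153 of the calls were higher and 75 lower, against 358 and 461. Of the 10 dendritic cell genes 4 were past the threshold, beside 5.45% of all tested genes, but Batf3 and Clec9a are among them by choice, so the count is no evidence; it was 7 with the identifier covariate, 2 with the replicate block and 2 to 5 without 1 library, with 2 without vehicle replicate 2. All 10 kept a negative fold change in every alternative that tested them. The filter of 5 FPKM left Xcr1, Flt3 and Zbtb46 untested. The causes were not tested. Same-numbered samples share only a number: deviations from the group means correlated at -0.156 to 0.145 over the 4 numbers, and 1 of the 4 tamoxifen libraries correlated best with its own number. The values came as FPKM without counts, so no counting interval was worked out here. The bounds deposited with the values, taken over all libraries, overlapped between groups for all 10 dendritic cell genes. In Batf3 the highest upper bound in tamoxifen tumors was 9.14 FPKM, above the lowest lower bound in vehicle tumors, 5.06 FPKM. For Clec9a these were 6.24 and 1.62 FPKM, and for Xcr1 1.26 and 0.509 FPKM. The low levels of Xcr1, Flt3, Tlr11 and Cd209a in tamoxifen tumors also limit how well their folds are known.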
